A study of Mus musculus with 18 samples.

Results

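A set of 10 genes of lipid storage and adipogenesis, out of 23951 in the expression table, were followed through fibroblasts and tumor cells sorted from fresh mouse pancreas and pancreatic tumors: the regulators Pparg and Cebpa, the fatty acid carrier Fabp4, the lipases Lpl and Lipe, the lipid droplet proteins Plin1, Plin2, Plin4 and Cidec, and the hormone gene Adipoq. They were chosen by name and role, as a list of 10, with earlier results of these data known. Poly(A) RNA was sequenced in 18 libraries of 5 groups, and the level of a gene is given as FPKM, which scales fragments by transcript length and by the mapped fragments of the library, so levels of different genes are compared per length. Normal pancreatic fibroblasts (NPF, n = 3) came from mice with wild-type K-Ras (K-Ras+/+), the Elas-tTA/tetO-Cre driver and a Rosa26+/EYFP reporter, and no Trp53 allele is named for them. Cancer-associated fibroblasts (WT_CAF, n = 5) and tumor cells (WT_tumor, n = 4) came from mice that carried the oncogenic allele K-Ras+/LSLG12Vgeo and floxed Trp53 (Trp53lox/lox), with the same driver and reporter. KO_CAF (n = 3) and KO_tumor (n = 3) came from mice of that tumor genotype that also lacked Saa3, an acute-phase serum amyloid gene (Saa3-/-). In all 5 groups the elastase promoter, which is active in acinar cells, drives the tTA that switches on Cre, so recombination is aimed at the exocrine epithelium and not at the fibroblasts. The series describes each group as at least 3 biological replicates, and the sources used here name neither the sort markers nor the ages of the mice.

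Adipocytes form when PPARG and C/EBPalpha switch on a program of lipid uptake and storage. Lipoprotein lipase releases fatty acids from circulating lipoproteins, FABP4 carries them inside the cell, perilipins and CIDEC coat and enlarge the droplet, and hormone-sensitive lipase (Lipe) helps to empty it. Quiescent pancreatic stellate cells, a source of fibroblasts in pancreatic tumors, store vitamin A in lipid droplets and lose these droplets on activation. Outside adipocytes, Pparg is also active in epithelia, Fabp4 in capillary endothelium and macrophages, and Plin2 coats droplets in most cell types.

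The upstream regions of Plin2 and Pparg, the members that were higher in tumor cells, are shown because PPARG is itself a DNA-binding receptor and Plin2 is a textbook target of it. The sequences are from RefSeq on GRCm38.p6, which had windows for 8 of the 10 genes, 12 windows in all, with none matched for Fabp4 and Lpl. Each line gives the 250 bases before a start site, and capitals mark the nuclear receptor hexamer AGGTCA (or its reverse complement TGACCT) or the C/EBP motif TTGCNNAA (or TTNNGCAA), searched on both strands.
Plin2, chr4:86670060-86670309, minus strand: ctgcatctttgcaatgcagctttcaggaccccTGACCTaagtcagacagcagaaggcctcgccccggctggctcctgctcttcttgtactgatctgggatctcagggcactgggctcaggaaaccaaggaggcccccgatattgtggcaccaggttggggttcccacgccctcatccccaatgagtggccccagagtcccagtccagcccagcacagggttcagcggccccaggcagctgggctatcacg
Pparg start 1, chr6:115360894-115361143, plus strand: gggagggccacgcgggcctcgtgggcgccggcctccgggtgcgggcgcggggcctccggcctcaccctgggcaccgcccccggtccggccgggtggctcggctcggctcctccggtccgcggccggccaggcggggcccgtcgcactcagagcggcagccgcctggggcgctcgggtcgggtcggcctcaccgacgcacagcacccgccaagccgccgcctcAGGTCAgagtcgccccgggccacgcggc
Pparg start 2, chr6:115362099-115362348, plus strand: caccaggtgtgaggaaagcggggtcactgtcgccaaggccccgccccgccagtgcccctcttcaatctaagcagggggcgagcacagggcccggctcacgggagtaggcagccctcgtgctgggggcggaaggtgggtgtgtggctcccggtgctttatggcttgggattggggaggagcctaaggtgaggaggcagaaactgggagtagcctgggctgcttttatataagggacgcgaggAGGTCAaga
Pparg start 3, chr6:115421816-115422065, plus strand: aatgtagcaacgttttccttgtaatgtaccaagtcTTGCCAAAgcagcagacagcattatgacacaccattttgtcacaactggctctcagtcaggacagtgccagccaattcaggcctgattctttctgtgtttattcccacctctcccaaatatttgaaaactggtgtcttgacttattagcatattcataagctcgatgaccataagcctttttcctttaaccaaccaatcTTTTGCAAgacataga
The hexamer lay 218 bases before the Plin2 start and 28 and 9 bases before the Pparg starts 1 and 2, and the C/EBP motif lay 215 and 16 bases before the Pparg start 3. In windows of 300 bases, which add 50 bases after the start, 16.3% of 32851 mouse promoter windows held the hexamer and 10.8% held the C/EBP motif. Of the 12 windows of these genes, 3 held the hexamer, those of Plin2 and of Pparg starts 1 and 2. The C/EBP motif was also in 3 of the 12, 1 each of Pparg, Plin1 and Cidec, so it was not particular to the genes shown. The direct repeat AGGTCANAGGTCA, the element that PPAR dimers prefer, was in 0 of the 12 windows of these genes and in 13 of all 32851. The table has 1 FPKM value per gene, so the Pparg starts were not told apart.

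The library labelled WT_CAF 1 stood apart from the other fibroblast libraries. Its 12 fibroblast markers summed to 942 FPKM, against 3494 to 24008 in the other 10 fibroblast libraries, and its 10 epithelial markers to 648 FPKM, against 7.72 to 352. The 7 tumor cell libraries had 14.5 to 711 FPKM of fibroblast and 2963 to 8652 FPKM of epithelial markers, with WT_tumor 4 the lowest of them for the latter. An FPKM of exactly 0 can be a failed estimate, since the fibroblast collagen genes Col1a1 and Col1a2 are listed at 0 in KO_CAF 2 and Col3a1 in WT_CAF 2 to 4 and KO_CAF 1 and 2, and these zeros enter the fibroblast sums. Saa3 stood at 1.85 FPKM or less in all 6 knockout libraries and at 2.75 FPKM or more in every other. By the description labels, 8 libraries have an index of 6 bases, 5 an index of 16 bases, and the 3 of NPF with WT_CAF 1 and 2 none. The labels do not say what this form stands for, and it was fitted as a term, here called library format. Differences are in log2(FPKM + 1), adjusted for format, given ± standard error, and were called at a Benjamini-Hochberg adjusted p under 0.05 over 13369 genes in limma. With the format term, the size of a WT_CAF difference from NPF rests on WT_CAF 1 and 2, and that from any other group on WT_CAF 3 to 5. Of the 10 genes, 7 passed the filter of 1 FPKM in at least 3 libraries, and Adipoq, Plin1 and Plin4 are given as values only. A gene is said to have passed the filter through 1 cell type alone where fewer than 3 libraries of the other reached 1 FPKM.

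In both genetic backgrounds the set split by cell type. Fabp4 and Lpl were higher in fibroblasts, Pparg and Plin2 were higher in tumor cells, and Cebpa, Lipe and Cidec did not pass the test in either direction. In WT_tumor against WT_CAF, 2 of the 7 tested genes were called higher, where 9.05% of all genes tested were, and 2 were called lower, against 12.5% of all genes. In KO_tumor against KO_CAF the same 4 genes were called in the same directions, against 13% higher and 15.4% lower over all genes. In bulk RNA of sorted cells, fewer cells of a type and less RNA per cell cannot be told apart.

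**Figure D1:**
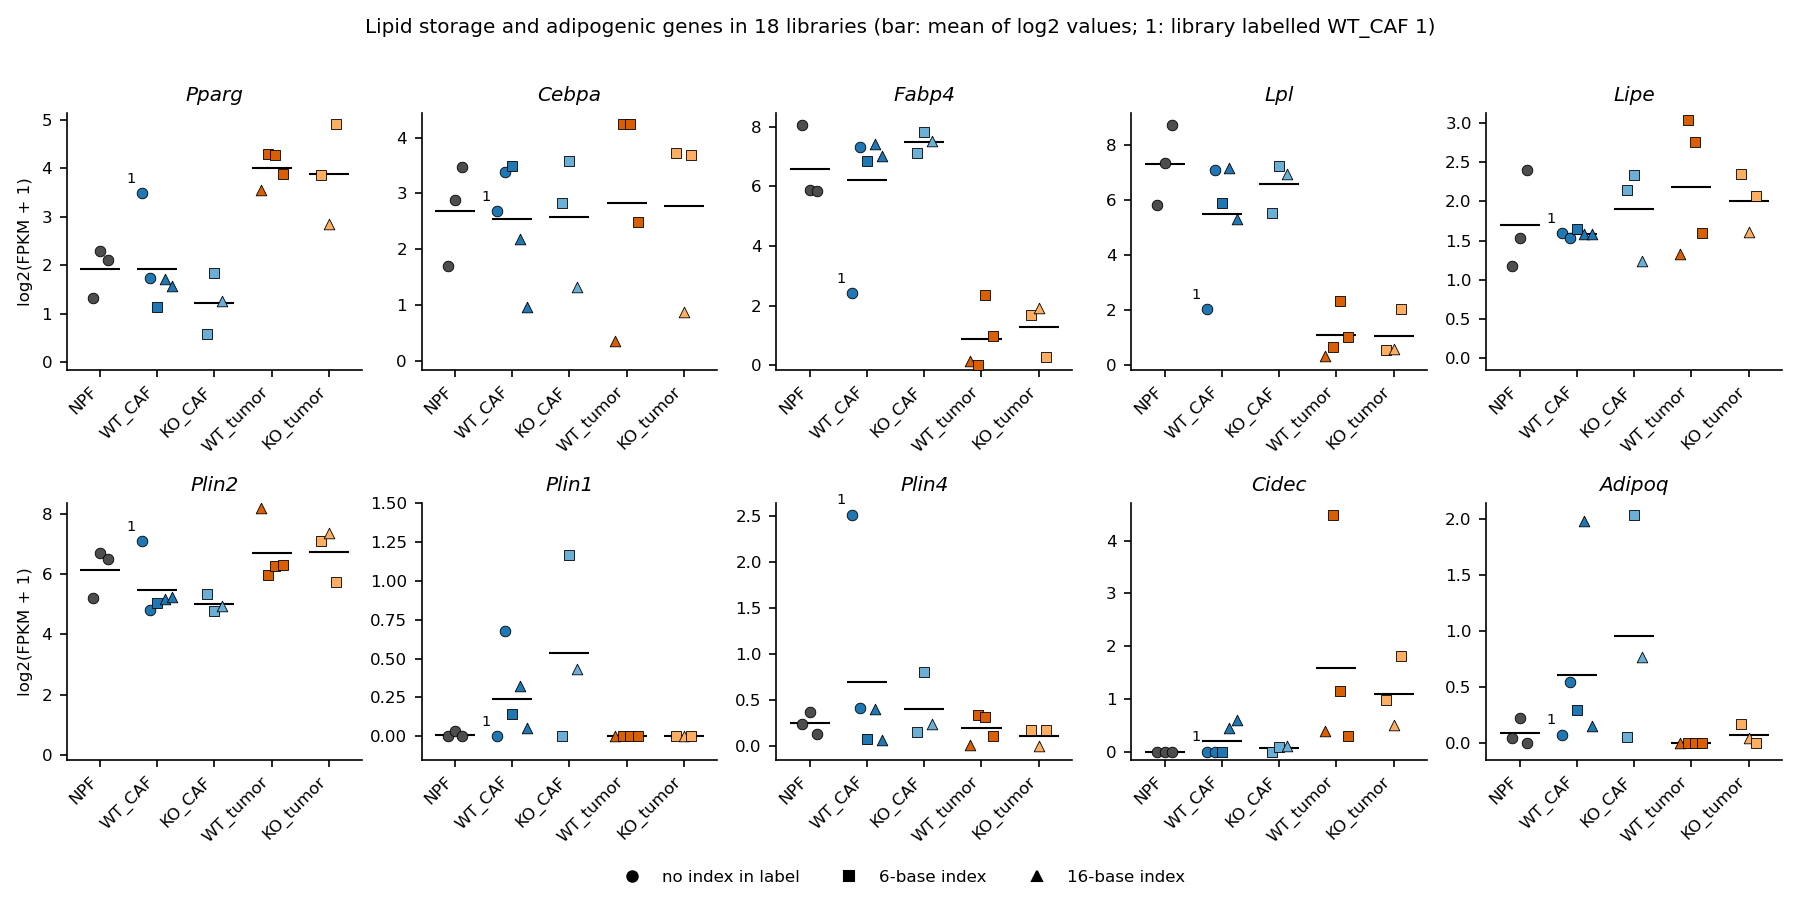
Level of each of the 10 genes in the 18 libraries, as log2(FPKM + 1), by group (NPF n = 3, WT_CAF n = 5, KO_CAF n = 3, WT_tumor n = 4, KO_tumor n = 3); points are libraries, their shape gives the index form in the label, bars are group means, and 1 marks the library labelled WT_CAF 1. Fabp4 and Lpl sat high in fibroblasts and near 0 in tumor cells, Pparg sat the other way round, and the library labelled WT_CAF 1 sat with the tumor cells for all 3.

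Pparg encodes the nuclear receptor that is required for adipocyte formation. It stood at 10.8, 18.6, 18.3 and 13.7 FPKM in WT_tumor 1 to 4 and at 13.6, 6.27 and 29.3 FPKM in KO_tumor 1 to 3. Among the fibroblasts it stood at 1.52, 3.89 and 3.34 FPKM in NPF 1 to 3, at 10.3, 2.32, 1.19, 2.27 and 1.96 FPKM in WT_CAF 1 to 5, and at 0.492, 2.59 and 1.42 FPKM in KO_CAF 1 to 3. The lowest tumor cell library, KO_tumor 2, was above every fibroblast library except that labelled WT_CAF 1, and the groups overlapped in neither background. WT_tumor averaged 15.3 ± 3.77 FPKM (SD, n = 4) against 3.6 ± 3.75 FPKM (SD, n = 5) in WT_CAF, a log2 difference of 2.37 ± 0.51 (adjusted p = 0.00552, limma). KO_tumor averaged 16.4 ± 11.8 FPKM (SD, n = 3) against 1.5 ± 1.05 FPKM (SD, n = 3) in KO_CAF, a log2 difference of 2.65 ± 0.52 (adjusted p = 0.00248, limma). Leaving out WT_CAF 3 ended the call in the WT background (1.85, adjusted p = 0.0793, limma). The library labelled WT_CAF 1 does not enter the size of this difference under the format term. Without that term the difference was 2.07 with this library (adjusted p = 0.00563, limma) and 2.46 without it (adjusted p = 2.13e-04, limma). The share of genes tested whose groups did not overlap, with tumor cells higher, was 5.66% in the WT and 20.6% in the knockout background.

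Fabp4, the cytosolic fatty acid carrier of adipocytes, capillaries and macrophages, went the other way. It stood at 265, 58.1 and 57.2 FPKM in NPF 1 to 3, at 4.37, 158, 114, 170.2 and 129.8 FPKM in WT_CAF 1 to 5 and at 138, 227 and 184 FPKM in KO_CAF 1 to 3. In tumor cells it stood at 0.0982, 0, 4.16 and 0.968 FPKM in WT_tumor 1 to 4 and at 2.24, 2.76 and 0.208 FPKM in KO_tumor 1 to 3. Every fibroblast library except that labelled WT_CAF 1 was above 57 FPKM, and that library, at 4.37 FPKM, was just above the highest tumor cell library. The log2 difference was -6.20 ± 0.99 in WT_tumor against WT_CAF (adjusted p = 0.00106, limma) and -6.20 ± 1.0 in KO_tumor against KO_CAF (adjusted p = 8.94e-04, limma). The groups did not overlap in either background, with tumor cells lower for 7.01% of genes tested in the WT and 21.3% in the knockout background. The call was kept under all 17 alternatives in the WT and all 13 in the knockout background. Since endothelium and macrophages also express Fabp4, their markers are set beside it. The 10 endothelial markers summed to 3.87 to 44.9 FPKM in the 10 fibroblast libraries other than that labelled WT_CAF 1 and to 1.42 to 7.29 FPKM in tumor cells. The 12 macrophage markers summed to 20.2 to 274 and 40.2 to 224 FPKM in the same libraries. The lowest endothelial sum, 3.87 FPKM, was in NPF 1, which had the highest Fabp4. The macrophage sum was 102 FPKM in NPF 1, against 25.1 and 20.2 FPKM in NPF 2 and 3. Few markers carried that sum, with 3 of the 12 at 1 FPKM or more in NPF 1, against 3 and 4 in NPF 2 and 3. The mean log2(FPKM + 1) of the 12 was 1.01 in NPF 1, against 0.87 and 0.96. The macrophage sum was highest, at 274 FPKM, in KO_CAF 1, where Fabp4 was 138 FPKM. Macrophage sums overlapped between the cell types. Of 4 endothelial markers tested, 1 was called lower in WT_tumor than in WT_CAF, where 12.5% of all genes tested were. It was Kdr, a receptor that passed the filter through fibroblasts alone (-3.02 ± 0.75, adjusted p = 0.0118, limma). In KO_tumor against KO_CAF 0 of the 4 were called, where 15.4% of all genes tested were lower. The part of these cells in the Fabp4 level was not tested.

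Lpl, the lipase that releases fatty acids from lipoproteins, followed the same split. NPF 1 to 3 had 55.0, 159 and 419 FPKM, WT_CAF 1 to 5 had 3.11, 133, 57.4, 141 and 38.6 FPKM, and KO_CAF 1 to 3 had 45.2, 150.3 and 121 FPKM. WT_tumor 1 to 4 had 0.260, 0.581, 3.99 and 1.05 FPKM, and KO_tumor 1 to 3 had 0.475, 0.509 and 3.14 FPKM. The 10 fibroblast libraries other than that labelled WT_CAF 1 were all at 38.6 FPKM or more and the 7 tumor cell libraries all at 3.99 FPKM or less, while the library labelled WT_CAF 1 fell inside the tumor cell range. The log2 difference was -5.12 ± 1.06 in the WT (adjusted p = 0.00459, limma). It was -5.50 ± 1.08 in the knockout background (adjusted p = 0.00255, limma). A fit on the libraries of WT_tumor and WT_CAF alone ended the call in the WT background (-5.17, adjusted p = 0.0546, limma), and every alternative kept it in the knockout background. WT_tumor 3, the tumor cell library with the most Lpl and Fabp4, also had the most fibroblast marker RNA of the 7 (711 FPKM, against 14.5 to 165 FPKM), and the part of this in its values was not tested.

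**Figure D2:**
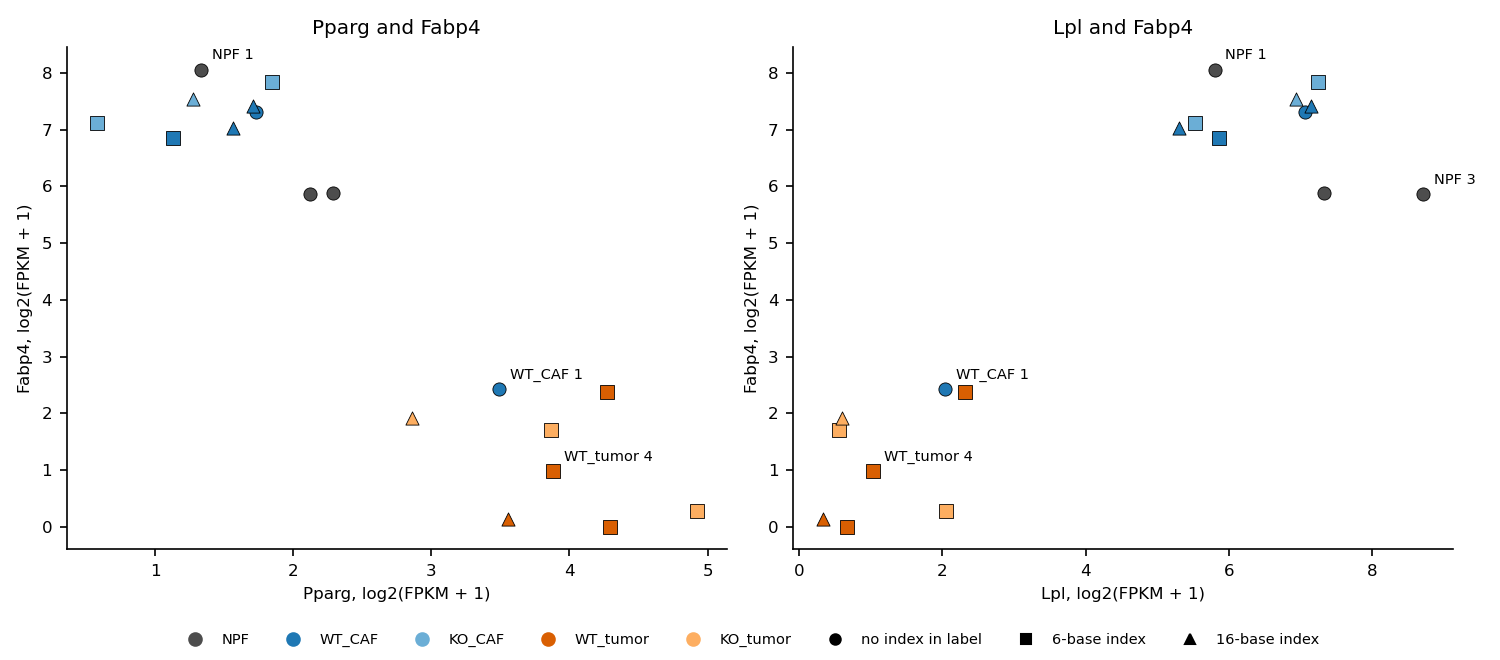
Fabp4 against Pparg (left) and against Lpl (right) in the 18 libraries, both axes log2(FPKM + 1), with colors for groups and shapes for the index form in the label. The 10 fibroblast libraries other than that labelled WT_CAF 1 form a cloud of high Fabp4, high Lpl and low Pparg, the 7 tumor cell libraries form the opposite cloud with WT_tumor 4 inside it, and the library labelled WT_CAF 1 lies beside the tumor cells.

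Lipe, the hormone-sensitive lipase that acts on stored lipid, was low in all 18 libraries, from 1.27 FPKM in NPF 1 to 7.20 FPKM in WT_tumor 2. NPF 1 to 3 had 1.27, 1.88 and 4.27 FPKM, WT_CAF 1 to 5 had 2.01, 1.90, 2.13, 2.0 and 2.0 FPKM, and KO_CAF 1 to 3 had 3.42, 4.06 and 1.36 FPKM. WT_tumor 1 to 4 had 1.5, 7.20, 5.80 and 2.04 FPKM, and KO_tumor 1 to 3 had 4.10, 2.06 and 3.21 FPKM. Lipe overlapped between fibroblasts and tumor cells in both backgrounds. Lpl, the lipase of the lipoprotein side, overlapped in the WT background alone, through the library labelled WT_CAF 1. In the knockout background 21.3% of genes tested did not overlap with tumor cells lower. The Lipe differences were 0.28 ± 0.37 (adjusted p = 0.617, limma, 95% confidence interval -0.52 to 1.07) in the WT and 0.10 ± 0.38 (adjusted p = 0.862, limma, -0.70 to 0.91) in the knockout background.

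Plin2, the perilipin found on droplets of most cell types, exceeded Plin1, Plin4 and Cidec in each of the 18 libraries. The tumor cells had 289.9, 62.1, 76.3 and 77.8 FPKM in WT_tumor 1 to 4 and at 136, 165 and 52.7 FPKM in KO_tumor 1 to 3. Fibroblasts had 35.9, 103 and 89.2 FPKM in NPF 1 to 3, 135, 27.2, 31.6, 34.8 and 37.0 FPKM in WT_CAF 1 to 5, and 39.6, 26.4 and 29.5 FPKM in KO_CAF 1 to 3. The cancer-associated fibroblasts other than the library labelled WT_CAF 1 lay between 26.4 and 39.6 FPKM, below all 7 tumor cell libraries, while NPF 2 and 3 lay within the tumor cell range. The log2 difference was 1.87 ± 0.59 in WT_tumor against WT_CAF (adjusted p = 0.0359, limma), where the groups overlapped through the library labelled WT_CAF 1, and 1.72 ± 0.59 in KO_tumor against KO_CAF (adjusted p = 0.0433, limma), where they did not overlap. In KO_tumor against KO_CAF, 20.6% of genes tested did not overlap with tumor cells higher.

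The Plin2 call was the least stable of the 4. It was lost under 9 of 17 alternatives in the WT background, with adjusted p between 0.013 and 0.207 over the 17, and under 7 of 13 in the knockout background, with adjusted p between 0.0288 and 0.196. In the WT background it was lost without WT_CAF 3 (2.22, adjusted p = 0.0808), WT_CAF 4 (1.76, 0.092), WT_CAF 5 (1.80, 0.0777), WT_tumor 1 (1.26, 0.207) or WT_tumor 3 (1.93, 0.051), all from limma. In the knockout background it was lost without KO_CAF 2 (1.74, adjusted p = 0.105), KO_CAF 3 (1.32, 0.196), KO_tumor 1 (1.40, 0.161) or KO_tumor 2 (1.65, 0.121), all from limma. The library labelled WT_CAF 1 does not enter this size under the format term. Without the term the WT difference was 1.22 with this library (adjusted p = 0.118, limma) and 1.62 without it (adjusted p = 0.0169, limma). Plin2 was higher in tumor cells within both index forms, with 1 to 3 libraries a side and no test. It was higher by 1.16 among the 6-base libraries and by 2.98 among the 16-base libraries of the WT background, and by 1.36 and 2.45 in the knockout background.

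**Figure D3:**
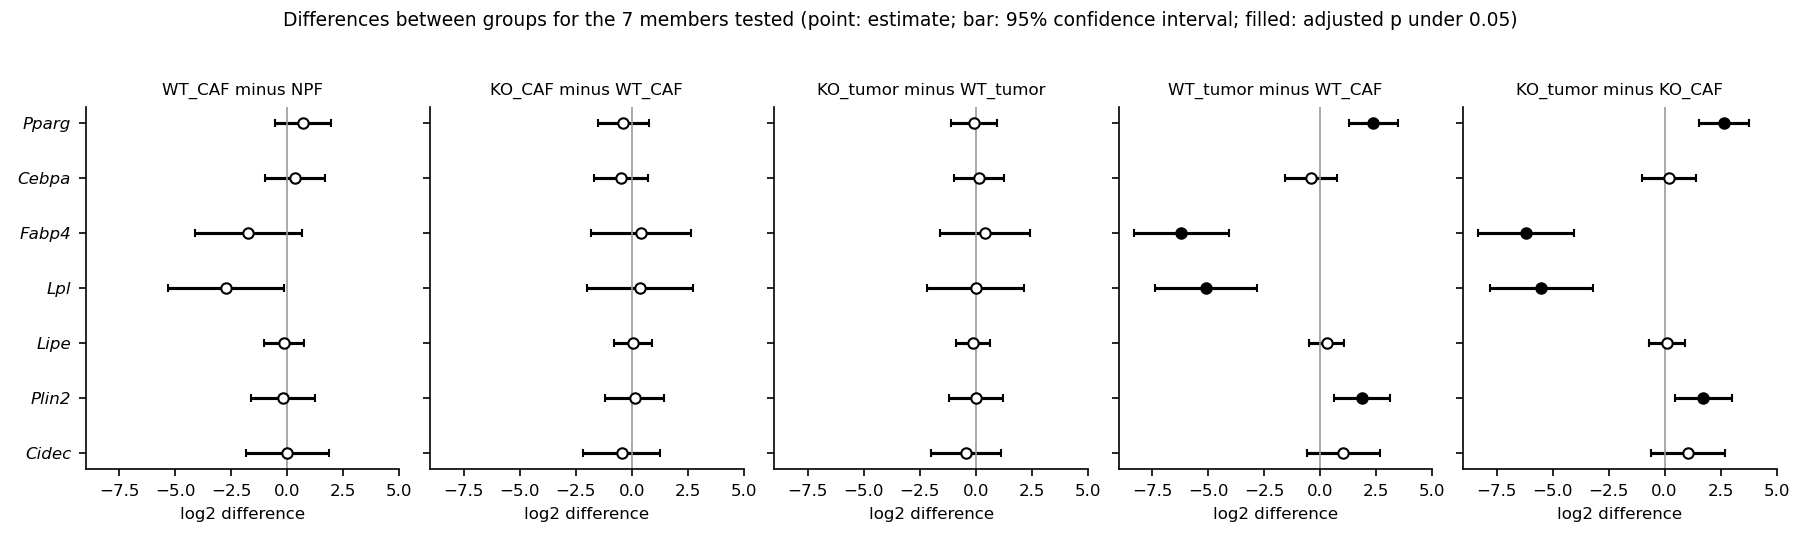
Differences between groups for the 7 genes tested, as log2(FPKM + 1) differences adjusted for library format, with 95% confidence intervals; filled points passed an adjusted p of 0.05 in limma. The filled points are Pparg, Fabp4, Lpl and Plin2 in both comparisons of tumor cells with fibroblasts, and no point is filled in the comparison with normal fibroblasts or in the Saa3 knockout comparisons.

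Plin1 and Adipoq, genes of the mature fat cell, stood at 3.11 FPKM or less in every library. Plin1, the perilipin of adipocytes, was listed at 0 in all 7 tumor cell libraries and at 0, 0.0220 and 0 FPKM in NPF 1 to 3. It stood at 0, 0.599, 0.103, 0.254 and 0.0362 FPKM in WT_CAF 1 to 5 and at 0, 1.25 and 0.349 FPKM in KO_CAF 1 to 3. Adipoq, the hormone adiponectin, stood at 0.0320, 0.167 and 0 FPKM in NPF 1 to 3, at 0.0520, 0.455, 0.224, 2.94 and 0.110 FPKM in WT_CAF 1 to 5 and at 0.0351, 3.11 and 0.696 FPKM in KO_CAF 1 to 3. In tumor cells Adipoq was listed at 0 in 5 of 7 libraries and reached 0.120 FPKM in KO_tumor 1. Both genes were highest in KO_CAF 2, and all values of Plin1 above 0.0220 FPKM were in cancer-associated fibroblasts.

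Plin4, another adipocyte perilipin, stood at 4.73, 0.333, 0.0493, 0.318 and 0.0454 FPKM in WT_CAF 1 to 5 and at 0.108, 0.748 and 0.179 FPKM in KO_CAF 1 to 3. In NPF 1 to 3 it stood at 0.176, 0.295 and 0.0912 FPKM, and no tumor cell library was above 0.258 FPKM. The 4.73 FPKM of the library labelled WT_CAF 1 had no counterpart in either cell type, so for Plin4 that library did not sit with the tumor cells. Cidec, which fuses droplets into larger ones, was listed at 0 in all 3 NPF libraries and stood at 0, 0, 0, 0.359 and 0.511 FPKM in WT_CAF 1 to 5 and at 0, 0.0669 and 0.0699 FPKM in KO_CAF 1 to 3. WT_tumor 1 to 4 had 0.316, 21.5, 1.23 and 0.232 FPKM of it and KO_tumor 1 to 3 had 0.968, 0.426 and 2.50 FPKM. Cidec did not overlap between KO_tumor and KO_CAF, as 20.6% of genes tested did not with tumor cells higher. Its difference did not pass the test there (1.03 ± 0.77, adjusted p = 0.329, limma) or in the WT background (1.03 ± 0.76, adjusted p = 0.347, limma), and it passed the filter through 3 tumor cell libraries.

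Mature adipocyte markers were set beside these traces of adipocyte genes. Of 14 such markers, 3 passed the filter, and Lep, the leptin gene, was listed at 0 in 16 of 18 libraries. A gene that reached 1 FPKM in fewer than 3 libraries could not pass, so this count does not bear on fat cells in single libraries. Summed, the 14 markers stood at 11.8 to 55.0 FPKM in the 10 fibroblast libraries other than that labelled WT_CAF 1, the highest in KO_CAF 2, and at 2.05 to 188.9 FPKM in tumor cells. Aoc3, a surface amine oxidase also found in smooth muscle, made up much of the fibroblast sum, with 48.1 FPKM in KO_CAF 2. It was at most 0.913 FPKM in tumor cells and passed the filter through fibroblasts alone, with calls in both backgrounds (-3.39 ± 0.95, adjusted p = 0.0212, and -3.93 ± 0.96, adjusted p = 0.00872, limma). Cfd, the adipocyte-secreted factor adipsin, stood at 24.9 FPKM in WT_CAF 4, where Adipoq was 2.94 FPKM, and at 0.687 FPKM or less elsewhere. Pck1, a gluconeogenic enzyme also made in liver and kidney, stood at 185.8 FPKM in WT_tumor 2, where Cidec was 21.5 FPKM, and at 3.41 FPKM or less in the other 17 libraries. Whether a few fat cells entered single sorts was not tested.

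**Figure D4:**
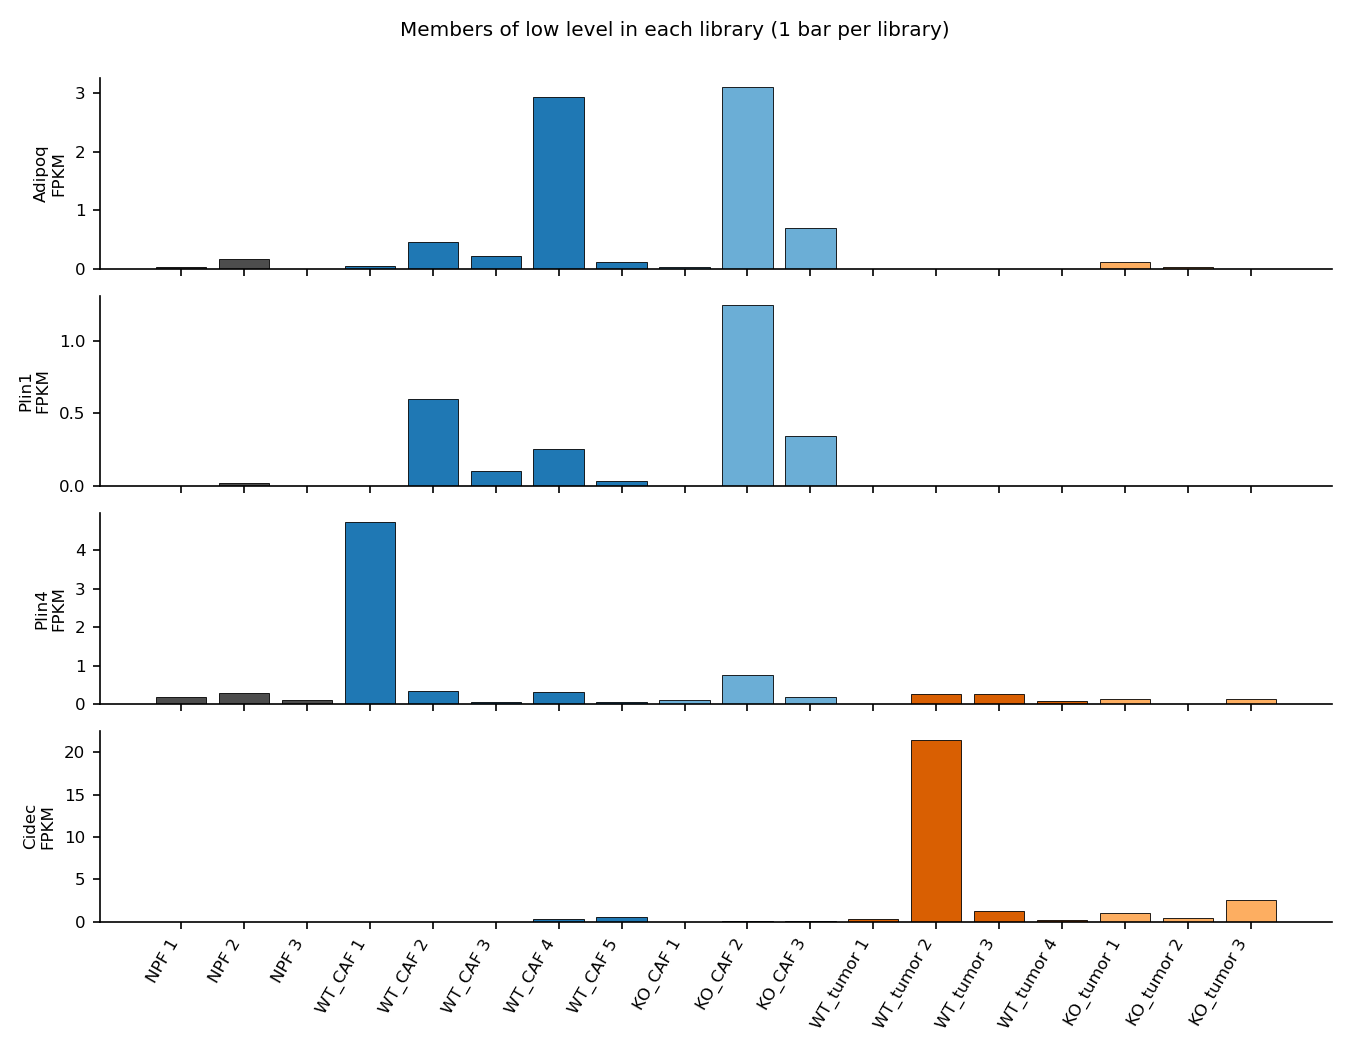
FPKM of Adipoq, Plin1, Plin4 and Cidec in each of the 18 libraries, 1 bar per library, each panel on its own axis from 0. Single libraries carry most of the signal: WT_CAF 4 and KO_CAF 2 for Adipoq (2.94 and 3.11 FPKM), KO_CAF 2 for Plin1 (1.25 FPKM), the library labelled WT_CAF 1 for Plin4 (4.73 FPKM) and WT_tumor 2 for Cidec (21.5 FPKM).

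Cebpa encodes the partner of PPARG in adipocyte differentiation, and its level did not follow cell type or genotype. It stood at 2.27, 6.42 and 10.1 FPKM in NPF 1 to 3, at 5.42, 9.40, 10.2, 3.55 and 0.959 FPKM in WT_CAF 1 to 5, and at 6.09, 10.9 and 1.51 FPKM in KO_CAF 1 to 3. WT_tumor 1 to 4 had 0.284, 17.9, 17.8 and 4.64 FPKM and KO_tumor 1 to 3 had 12.3, 0.848 and 12 FPKM. The differences between tumor cells and fibroblasts were -0.42 ± 0.54 (adjusted p = 0.604, limma; 95% confidence interval -1.59 to 0.75) in the WT and 0.20 ± 0.55 (adjusted p = 0.819, limma; -0.99 to 1.38) in the knockout background.

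Within each of the 4 tumor-derived groups, the lowest Cebpa values were in the libraries whose label carries a 16-base index. These 5 libraries, WT_CAF 4 and 5, KO_CAF 3, WT_tumor 1 and KO_tumor 2, had 0.284 to 3.55 FPKM with a median of 0.959 FPKM. The 8 libraries with a 6-base index had 4.64 to 17.9 FPKM with a median of 11.4 FPKM, and the 5 without an index, all of fibroblasts, had 2.27 to 10.1 FPKM. The 16-base minus 6-base difference of the same fit, read after the values had been seen, was -2.50 ± 0.41 for Cebpa (adjusted p = 6.32e-04, limma). Of all genes tested, 11.2% were called lower in that contrast and 6.66% higher. Lipe moved with it by value, at 1.36 to 2.06 FPKM in the 16-base and 2.04 to 7.20 FPKM in the 6-base libraries, but did not pass the test (-0.72 ± 0.28, adjusted p = 0.0936, limma). In the other 5 tested genes the 16-base minus 6-base difference lay between -0.51 and 0.79, none called.

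**Figure D5:**
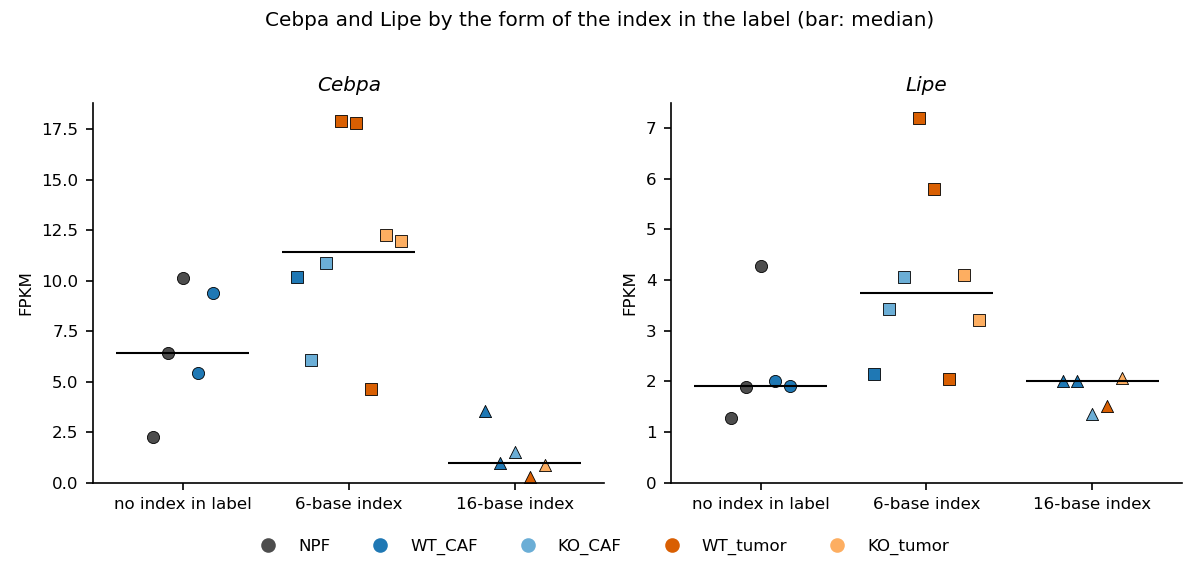
FPKM of Cebpa and Lipe in the 18 libraries, arranged by the form of the index in the description label, with points for libraries, colors for groups and bars for medians. For Cebpa all 5 libraries with a 16-base index lie below all 8 with a 6-base index, whatever their group, and for Lipe they lie at the low end.

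The comparison of WT_CAF with NPF asks how these genes differ between fibroblasts of a tumor and of a normal pancreas. None of the 7 tested genes was called in limma, where 0.95% of all genes tested were (0.277% higher and 0.673% lower), and 1 had an unadjusted p under 0.05, as had 2254 of the 13369 genes tested, a like share. That gene was Lpl, at 211 ± 188 FPKM (SD, n = 3) in NPF and 74.7 ± 60.3 FPKM (SD, n = 5) in WT_CAF, with a difference of -2.73 ± 1.20 (unadjusted p = 0.0396, adjusted p = 0.271, limma). Fabp4 differed by -1.73 ± 1.12 (adjusted p = 0.456, limma), Pparg by 0.70 ± 0.58 (adjusted p = 0.57, limma) and Plin2 by -0.18 ± 0.66 (adjusted p = 0.933, limma). Cebpa differed by 0.34 ± 0.62 (adjusted p = 0.832, limma) and Lipe by -0.14 ± 0.42 (adjusted p = 0.913, limma), and Cidec was listed at 0 in the 5 libraries that set its difference. WT_CAF and NPF overlapped in all 7 genes, where 5.13% of genes tested did not overlap with WT_CAF higher and 6.05% with it lower.

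These sizes turned on the library labelled WT_CAF 1. Without it, the differences from NPF were -0.22 ± 1.09 for Lpl, 0.71 ± 0.96 for Fabp4, -0.19 ± 0.64 for Pparg and -1.31 ± 0.70 for Plin2, none called (adjusted p 0.445 to 0.98, limma). Without WT_CAF 2, which leaves the library labelled WT_CAF 1 as the sole one of its group in this format, Fabp4 and Lpl were called lower than in NPF, by -4.18 ± 0.96 (adjusted p = 0.0179) and -5.24 ± 1.09 (adjusted p = 0.0111, limma). Within NPF, Lpl was 55.0, 159 and 419 FPKM and 12 acinar markers summed to 1360, 7960 and 54763 FPKM in the same libraries, against 229 to 974 FPKM in WT_CAF 2 to 5. In the 7 tumor cell libraries the acinar sum ran from 10.3 to 28955 FPKM, with Lpl at 3.99 FPKM or less. KO_tumor 1, with the lowest sum, had 0.475 FPKM of Lpl. WT_tumor 1, at 23799 FPKM, had 0.260 FPKM, and KO_tumor 3, with the highest sum, had 3.14 FPKM. The part of acinar RNA in the NPF values was not tested. The NPF libraries share their format with WT_CAF 1 and 2 alone, so format and condition cannot be told apart for the other WT_CAF libraries.

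The comparisons of knockout with wild-type libraries ask whether loss of Saa3 goes with a change of these genes. In KO_CAF against WT_CAF 0 of the 7 genes were called in limma and 0 had an unadjusted p under 0.05, where 0.00748% of all genes tested were called. In KO_tumor against WT_tumor the counts were also 0 and 0, where 0% of all genes were called. Fabp4 averaged 183 ± 44.6 FPKM (SD, n = 3) in KO_CAF and 115 ± 65.8 FPKM (SD, n = 5) in WT_CAF, with a difference of 0.42 ± 1.03 (adjusted p = 1, limma; 95% confidence interval -1.80 to 2.63). Lpl differed by 0.38 ± 1.11 (-1.99 to 2.76), Pparg by -0.37 ± 0.53 (-1.51 to 0.77) and Plin2 by 0.13 ± 0.61 (-1.18 to 1.45) in the fibroblasts. Cebpa differed there by -0.47 ± 0.57 (-1.69 to 0.75), Lipe by 0.06 ± 0.39 (-0.77 to 0.90) and Cidec by -0.45 ± 0.80 (-2.16 to 1.26). In tumor cells Pparg differed by -0.08 ± 0.48 (-1.12 to 0.95), Plin2 by -0.01 ± 0.56 (-1.21 to 1.19), Fabp4 by 0.42 ± 0.94 (-1.60 to 2.43) and Cebpa by 0.15 ± 0.52 (-0.96 to 1.26). Lipe differed there by -0.11 ± 0.35 (-0.87 to 0.65) and Cidec by -0.44 ± 0.72 (-2.0 to 1.11), and the Lpl interval ran from -2.16 to 2.16. These intervals include differences of more than 1 log2 unit in most of these genes, so such changes were not detectable with these libraries, and the absence of a change is not shown. In all 7 genes the knockout and wild-type groups overlapped. Over all genes tested, 0.464% did not overlap with KO_CAF higher than WT_CAF and 0.733% with it lower, and 1.36% with KO_tumor higher than WT_tumor and 2.25% with it lower. The difference between the knockout effects in fibroblasts and in tumor cells was called for 0 of the 7 genes, with 0 at an unadjusted p under 0.05 and 0% of all genes called.

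Around these 10 genes, 6 further lists of 96 genes were read in the same fit, of which 71 passed the filter. In WT_tumor against WT_CAF 5 of the 71 were called higher and 19 lower, where 9.05% and 12.5% of all genes tested were. In KO_tumor against KO_CAF it was 7 and 21, where 13% and 15.4% of all genes were. The shares of all genes apply to each list below. Passing the filter through 1 cell type alone favors a difference between the cell types, so the list counts are a description. The median difference over all genes tested was 0.07 and 0.05, and the calls of 5 of 24 and 14 of 26 genes that the naming rule picked were kept under every alternative. Those kept in the WT background were Nr2f2, Lrp1, Slc27a3, Fgf2 and Des. In WT_CAF against NPF 0 of the 71 were called and 14 had an unadjusted p under 0.05, a share near that of 2254 of 13369 over all genes (limma). In KO_CAF against WT_CAF these counts were 0 and 0, and in KO_tumor against WT_tumor 0 and 5, where 125 and 528 of all genes had such a p (limma).

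Among 20 adipogenic regulators other than Pparg and Cebpa, 17 were tested. In the WT background 2 were higher and 4 lower in tumor cells, where 9.05% and 12.5% of all genes were, with a median difference of -1.29. In the knockout background 2 were higher and 6 lower, where 13% and 15.4% of all genes were, with a median of -1.42. Klf5, a pro-adipogenic factor that is also an epithelial transcription factor, was higher in tumor cells (2.82 ± 0.59, adjusted p = 0.0046, and 3.74 ± 0.59, adjusted p = 8.27e-04, limma). Cebpb, which acts upstream of Pparg and Cebpa and is induced in inflammation, was lower (-2.18 ± 0.55, adjusted p = 0.0129, and -2.03 ± 0.56, adjusted p = 0.0159). Ebf1, an early adipogenic factor, was at most 0.618 FPKM in tumor cells and passed the filter through fibroblasts alone (-2.63 ± 0.89, adjusted p = 0.0497, and -2.97 ± 0.91, adjusted p = 0.0259, limma). Its call was lost under 9 of 17 and 6 of 13 alternatives. Lower in both backgrounds was Nr2f2, a nuclear receptor that restrains adipogenesis (-1.93 ± 0.23, adjusted p = 2.35e-04, and -1.42 ± 0.23, adjusted p = 9.24e-04). Zfp423, which commits cells to the preadipocyte state, was at most 0.0702 FPKM in tumor cells and also passed through fibroblasts alone, with a call in the knockout background (-1.96 ± 0.58, adjusted p = 0.0233, limma). Zfp467 was lower in the WT background (-1.38 ± 0.43, adjusted p = 0.035, limma), a call lost under 10 of 17 alternatives, and in the knockout background the difference was 0.02 ± 0.44 (adjusted p = 0.981, limma). Gata3, an inhibitor of adipogenesis, passed the filter through tumor cells alone and was called higher in the WT background (1.02 ± 0.26, adjusted p = 0.0126, limma).

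Dlk1, the preadipocyte factor that inhibits adipogenesis, stood at 18.8, 13.3 and 12.1 FPKM in KO_tumor 1 to 3 and at 0.515, 2.66, 0.925 and 3.72 FPKM in WT_tumor 1 to 4. The groups did not overlap, which held with the knockout higher for 1.36% of genes tested, and the difference of 2.57 ± 0.44 had an unadjusted p of 4.4e-05 but did not pass the adjusted test (adjusted p = 0.319, limma). Fibroblasts of the tumors had 0.0874 to 0.728 FPKM and NPF 1 to 3 had 1.76, 4.83 and 10.8 FPKM of Dlk1, and it was called higher in KO_tumor than in KO_CAF (3.61 ± 0.47, adjusted p = 2.72e-04, limma).

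Among 18 further droplet and lipolysis genes, 15 were tested, with 1 higher and 3 lower in the WT background (median 0.31) and 3 and 3 in the knockout background (median 0.06). The WT counts lay near the 9.05% and 12.5% of all genes. Cidea, the relative of Cidec known from brown fat, stood at 0.734 to 20.2 FPKM in WT_tumor and 5.06 to 9.07 FPKM in KO_tumor and at no more than 0.207 FPKM in cancer-associated fibroblasts, and the difference was 2.56 ± 0.59 in the WT and 2.90 ± 0.60 in the knockout background (adjusted p = 0.00824 and 0.00363, limma), but it passed the filter through tumor cells alone. G0s2, an inhibitor of the main triglyceride lipase, was lower in tumor cells (-4.21 ± 0.90, adjusted p = 0.00545, and -3.73 ± 0.92, adjusted p = 0.00887, limma). The lipase itself, Pnpla2, was higher in KO_tumor than in KO_CAF (1.79 ± 0.41, adjusted p = 0.00642, limma). Mgll, which completes lipolysis and passed the filter through fibroblasts alone, was called lower in tumor cells (-3.18 ± 0.79, adjusted p = 0.0121, and -3.11 ± 0.81, adjusted p = 0.0117), as was Bscl2, the droplet biogenesis protein seipin (-1.93 ± 0.52, adjusted p = 0.0181, and -2.06 ± 0.53, adjusted p = 0.0113, limma). Aup1, another droplet protein, was higher in the knockout background (0.90 ± 0.18, adjusted p = 0.00278, limma).

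Genes of fatty acid uptake and of lipoprotein lipase handling had 15 of 17 members tested, with 1 higher and 5 lower in each background (medians -0.05 and -0.97), against 9.05% and 12.5% of all genes in the WT and 13% and 15.4% in the knockout background. Lmf1, the factor that matures lipoprotein lipase, was lower in tumor cells together with Lpl (-1.39 ± 0.34, adjusted p = 0.0114, and -1.18 ± 0.35, adjusted p = 0.0226, limma). Angptl4, which inhibits the enzyme, was lower in KO_tumor than in KO_CAF (-2.39 ± 0.63, adjusted p = 0.0124, limma), at 34.1, 75.0 and 32.1 FPKM against 270.5, 171 and 271 FPKM. Lrp1, an uptake receptor for lipoprotein remnants with many other ligands, was lower in both (-4.24 ± 0.52, adjusted p = 3.12e-04, and -4.98 ± 0.53, adjusted p = 8.91e-05, limma). The fatty acid transporters of the Slc27 family split, with Slc27a3 lower (-2.54 ± 0.39, adjusted p = 9.51e-04, and -2.02 ± 0.40, adjusted p = 0.00268) and Slc27a1 higher in tumor cells (1.01 ± 0.33, adjusted p = 0.0425, and 1.40 ± 0.33, adjusted p = 0.00758, limma). The Slc27a1 call in the WT background was lost under 11 of 17 alternatives. Fabp3, the muscle relative of Fabp4, was lower in the WT background (-2.22 ± 0.59, adjusted p = 0.0171), and Acsl4, which activates long fatty acids, was lower in both (-1.55 ± 0.43, adjusted p = 0.0205, and -1.32 ± 0.44, adjusted p = 0.0361, limma).

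Fatty acid and triglyceride synthesis had 15 of 17 genes tested, with 1 higher and 2 lower in the WT (median 0.35) and 1 and 3 in the knockout background (median 0.64), shares near those of all genes (9.05% and 12.5%, and 13% and 15.4%). Scd1, the stearoyl-CoA desaturase, stood at 1.01 to 13 FPKM in the 7 tumor cell libraries and at 15.3 to 104 FPKM in the 11 fibroblast libraries, and was lower in tumor cells (-3.50 ± 0.70, adjusted p = 0.00397, and -4.14 ± 0.71, adjusted p = 0.00124, limma). The library labelled WT_CAF 1 had 68.8 FPKM of Scd1 and stood with the fibroblasts for this gene. Gpam, the first enzyme of glycerolipid synthesis, was lower in both (-1.37 ± 0.40, adjusted p = 0.0271, and -1.73 ± 0.41, adjusted p = 0.00727, limma). The lipins, phosphatidate phosphatases, differed among themselves, with Lpin2 higher in the WT (0.95 ± 0.30, adjusted p = 0.0371, limma) and Lpin1 lower in the knockout background (-1.03 ± 0.25, adjusted p = 0.00835, limma). Me1, a source of NADPH for lipid synthesis, was higher in the knockout background (1.32 ± 0.41, adjusted p = 0.0288, limma).

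Of 10 markers of quiescent stellate cells, the lipid-storing cells of the normal pancreas, 6 were tested, with 0 higher and 4 lower in tumor cells of the WT background and 0 and 3 in the knockout background (medians -2.54 and -2.06), where 12.5% and 15.4% of all genes were lower. They included Des, the intermediate filament desmin (-5.57 ± 1.13, adjusted p = 0.00415, and -4.33 ± 1.15, adjusted p = 0.0132), Hgf, the hepatocyte growth factor (-2.80 ± 0.80, adjusted p = 0.0237, and -2.84 ± 0.81, adjusted p = 0.0193, limma), and Fgf2 (-3.42 ± 0.57, adjusted p = 0.00142, and -4.06 ± 0.58, adjusted p = 4.63e-04, limma). Hgf was at most 0.805 FPKM in tumor cells, and both Hgf and Des passed the filter through fibroblasts alone. Summed, the 10 markers stood at 66.5 to 96.6 FPKM in NPF, within the range of the tumor cells (85.6 to 124 FPKM in WT_tumor, 59.7 to 102 FPKM in KO_tumor). They summed to 226 to 322 FPKM in KO_CAF and 48.9 to 378 FPKM in WT_CAF, the lowest in the library labelled WT_CAF 1. The median WT_CAF minus NPF difference of the 6 tested was -0.08, and 1.61 without that library. Between fibroblast groups none of the 6 was called. Rbp4, the retinol carrier, had the smallest p there, at 2.21, 5.91 and 7.81 FPKM in NPF against 14.7 to 39.4 FPKM in WT_CAF (2.2 ± 0.54, unadjusted p = 0.00111, adjusted p = 0.0711, limma).

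The genes whose log2(FPKM + 1) was most like that of each tested member over the 18 libraries, by Pearson correlation, are given as a description. For Pparg they were Capn5 (r = 0.965), Madd (0.957) and Mecom (0.955), for Fabp4 Pdpn (0.980), BC028528 (0.979) and Vkorc1 (0.979), and for Lpl Reck (0.987), Acvrl1 (0.985) and Ndn (0.981). Pdpn, podoplanin, is a fibroblast surface marker, and stood at a median of 78.4 FPKM in fibroblasts and 0.245 FPKM in tumor cells. For Plin2 they were Lrpprc (0.907), Ptpn22 (0.897) and Lrp8 (0.895), for Cebpa Anxa11 (0.943), Rere (0.914) and Mesdc1 (0.912), and for Lipe Chd2 (0.828), Ppp6r3 (0.814) and Utrn (0.812). Those of Cidec, Golt1a (0.991), Ces2c (0.988) and Hnf4g (0.983), rest on WT_tumor 2, where Cidec reached 21.5 FPKM. The points of each correlation share library, index form and cell type.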

How the data were processed

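Per the labels' protocols, poly(A) RNA of sorted mouse cells was prepared with the TruSeq RNA chemistry of Illumina and sequenced on a HiSeq2000. The values used are FPKM, which the authors deposited as 1 table of 23951 genes by 18 libraries. Cufflinks 2.2.1 and Cuffnorm, TopHat2 2.0.10, SAMtools 0.1.19, Bowtie 1.0.0 and FastQC are named per the submitters' processing notes, as are the builds mm9 (the mouse genome among them), hg19 and GRCh37. The sources used here do not give their order, settings or annotation. FPKM is a model estimate, read counts were not used, and the depth of a library is unknown, so no counting intervals are given. FPKM summed to 396646 to 919859 per library.

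Groups were taken from the labels, and replicate numbers follow accession order. Tests used limma 3.58.1 under R 4.3.3 (empirical Bayes with trend, two-sided) on log2(FPKM + 1), a scale that understates the change of low genes. The filter asked for 1 FPKM in at least 3 libraries (13369 of 23951 genes passed). A fit of all 18 libraries had group and library format as terms, leaving 11 residual degrees of freedom, with Benjamini-Hochberg adjustment over all genes tested. The fit was tested on simulated data first. Alternatives were a pseudocount of 0.1, no filter, no format term, rescaling FPKM to an equal total per library, median-of-ratios scaling, fits of the compared groups alone, and leaving out each library. Leaving out the library labelled WT_CAF 1 together with WT_tumor 4, and reading the format term itself, were added after seeing the data. All 10 genes were followed in every comparison, the 7 tested by their differences and the other 3 by value; of the first 6 lists, up to 6 called genes with the smallest adjusted p per list and comparison, or up to 2 with the smallest p where none was called; and, for each tested member, the 3 genes most correlated with it. The lists were adipogenic regulators, droplet and lipolysis, fatty acid uptake, lipid synthesis, mature adipocyte and quiescent stellate cell genes, with fibroblast, epithelial, acinar, endothelial, macrophage and mesothelial markers. Mesothelial markers summed to 22.5 to 183 FPKM in the 10 fibroblast libraries other than WT_CAF 1 and 101 to 466 FPKM in tumor cells. A result that the naming rule picked is not reported here. The 10 genes and the lists were chosen with earlier results of these data known. Promoter windows were read from RefSeq tables with Python 3.11.15 and pandas 2.3.3, and figures were drawn with matplotlib 3.10.9.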

Additional observations from a re-analysis of the deposited data

Results flagged for a closer look

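Among 18 tests of a gene in a group of 4 or 5 libraries, 6 found a library farther from the others than Dixon's 95% critical value allows, where chance gives about 1 in 20. The library labelled WT_CAF 1 accounted for 4 of them: Pparg at 10.3 FPKM against 1.19 to 2.32 in WT_CAF 2 to 5, Fabp4 at 4.37 FPKM against 114 to 170.2, Plin2 at 135 FPKM against 27.2 to 37.0, and Plin4 at 4.73 FPKM against 0.0454 to 0.333. The first 3 of these values lay beside or within the range of the tumor cell libraries (6.27 to 29.3 FPKM for Pparg, 0 to 4.16 for Fabp4, 52.7 to 289.9 for Plin2), and the Plin4 value lay outside it (0 to 0.258). In WT_tumor 1, a library with a 16-base index, Plin2 stood at 289.9 FPKM against 62.1 to 77.8 FPKM in WT_tumor 2 to 4. In WT_CAF 4, Adipoq stood at 2.94 FPKM, where the other libraries of that group had 0.0520 to 0.455 FPKM, and the adipocyte gene Cfd stood at 24.9 FPKM in the same library.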

How the results depend on the processing

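Of 742 values of the 7 tested genes recomputed under the alternatives, 715 kept their direction and their side of the threshold or moved by less than the spread. Of the rest, 18 called differences lost the call, 2 gained one, 7 moved within an index form and 0 reversed. A difference under 1 standard error was taken as having no direction. In all, 72 differences changed sign, all of them uncalled on both sides. In WT_CAF against NPF the number of the 10 genes called was 0 and ranged from 0 to 2 when 1 library was left out, with 2 without WT_CAF 2. In WT_tumor against WT_CAF it was 4, fell to 2 in the fit of these groups alone, and ranged from 2 to 4 when 1 library was left out, with 2 without WT_CAF 3. Elsewhere it stayed within 1.5 times: 3 or 4 in KO_tumor against KO_CAF, and 0 in both knockout comparisons and in their difference. Over all genes tested, the calls in WT_CAF against NPF were 127 and became 249 without the filter, 307 without the format term, 910 without it and the library labelled WT_CAF 1, 70 with FPKM rescaled to an equal total per library, 2 in the fit of these groups alone, and 82, 46 and 1324 without NPF 1, NPF 2 and WT_CAF 2. The share of them that was higher was 29.1% and became 45.4% with a pseudocount of 0.1, 39.7% without the format term, 53.7% without the library labelled WT_CAF 1 and 56.9% without both. Calls in WT_tumor against WT_CAF were 2880 (42% higher) and became 742 (32.1%) in the fit of these groups alone, and 1194 and 1827 without WT_CAF 3 and WT_tumor 1; those in KO_tumor against KO_CAF were 3798 and became 2201 and 2308 without KO_CAF 2 and KO_CAF 3. Calls in KO_CAF against WT_CAF were 1 and ranged from 0 to 4, those in KO_tumor against WT_tumor 0 and from 0 to 5, and those of the difference of the knockout effects 0 and from 0 to 1. Rescaling moved the median of all genes by 0.225 in WT_CAF against NPF, 0.173 in WT_tumor against WT_CAF and 0.105 in the difference of the knockout effects. Of 746 values of list genes, 618 kept the call and 128 lost it, up to 18 of 24 in the fit of WT_tumor and WT_CAF alone and up to 17 of 24 without WT_CAF 3. The causes were not tested. No paired analysis was possible because the labels give the groups no shared replicate numbers. The tests treated all libraries as independent, and any fibroblast and tumor cell libraries from the same mouse were not linked. The depth of the libraries is unknown, so how far values near 0 reflect few fragments cannot be said.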
